A study of Mus musculus with 16 samples.

Results

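Cadherins, protocadherins and catenins are the proteins from which cells build their calcium-dependent contacts. The genes described here were chosen by name from the gene tables: the cadherins (Cdh followed by a number), the protocadherins outside the clustered families (Pcdh followed by a number), the giant cadherins of the Fat, Dchs and Celsr families, the alpha-catenins, beta-catenin (Ctnnb1) and p120-catenin (Ctnnd1). The rule reads names alone, but it was set with earlier results of these data known. The rule found 48 of the 30385 genes listed. Of these, 29 passed the filter on low reads and were tested among 16835 genes, and 19 did not. Dchs2 is not analysed here.

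Polyadenylated RNA was sequenced from immortalized mouse epicardial cells, which derive from the outer cell layer of the embryonic heart, with and without Tgfbr3, a co-receptor that presents TGF-beta ligands and also binds BMP2. The mt cells had the genotype Tgfbr3-/-:Immorto and the wt cells Tgfbr3+/+:Immorto. Both were isolated at E11.5 from a C57BL/6 SV129 mixed background, and both carry the Immorto transgene, a temperature-sensitive T antigen that was active during growth at 33 °C and inactivated at 37 °C for the experiment. Cells of each genotype, seeded at 200000 per well, received 250 pM TGFB1, 250 pM TGFB2, 5 nM BMP2 or vehicle (VEH) for 72 h, which gives 8 groups of 2 libraries. The labels do not say how many lines or embryos stand behind a genotype, so the loss of Tgfbr3 and any other difference between the lines cannot be told apart. They also do not say that the 2 libraries of a group came from separate cultures, so the p-values measure only the spread between these libraries, which may be technical.

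Classical cadherins bind a like cadherin on the neighbouring cell through their outer part. Their inner part holds p120-catenin, which keeps them at the membrane, and beta-catenin, which with alpha-catenin ties the junction to actin. Beta-catenin that is not held in junctions can enter the nucleus and act with TCF factors in the Wnt pathway. Epicardial cells form an epithelium that lets cells go into the heart wall by epithelial-to-mesenchymal transition, a change that TGF-beta ligands can drive and in which cadherins are exchanged or lost. Protocadherins and the giant cadherins do not use the classical catenin complex in the same way: Fat4 and Dchs1 form a receptor and ligand pair, and Celsr proteins are core parts of planar cell polarity.

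The libraries held 6410320 to 31813921 counted reads. Tgfbr3 stood at 14.6 and 18.2 CPM (reads per 1e+06, with TMM-scaled library sizes) in mt VEH cells, against 71.02 and 100.3 CPM in wt VEH cells, which went with the labels. The epicardial markers Wt1, Tbx18 and Tcf21 were present in every library. The summed level of the 12 epicardial markers listed was 787 to 970.0 CPM in the mt TGFB1 and TGFB2 libraries, against 3423 to 3874 CPM in mt VEH. It was 1306 to 1560.2 CPM in the wt TGFB1 and TGFB2 libraries, against 3596 to 3597 CPM in wt VEH. Of these 12 markers, 1 rose and 8 fell in mt cells given TGFB1, and 1 rose and 5 fell in wt cells given TGFB1. The summed level of 14 cardiomyocyte markers was 191 to 293 CPM in the mt TGFB1 and TGFB2 libraries, against 64.9 to 135 CPM in mt VEH, and 668 to 923 CPM in the wt TGFB1 and TGFB2 libraries, against 154 to 251 CPM in wt VEH; 2 of the 14 rose and 0 fell with TGFB1 in each line. The 4 mt replicate 1 libraries stood apart by cardiac muscle transcripts: Myh6, a cardiac myosin, was at 14.6 to 28.4 CPM there and at 0 to 0.44 CPM in the other 12 libraries. The 9 fibroblast markers listed summed to 7649 to 9140.0 CPM in the mt TGFB1 and TGFB2 libraries, against 20381 to 24047 CPM in mt VEH, and 8766 to 10995 CPM in the wt TGFB1 and TGFB2 libraries, against 13511 to 20721 CPM in wt VEH. Of these 9, 1 rose and 4 fell with TGFB1 in each line, and 1 rose and 6 fell with TGFB2 in mt cells. The 10 haematopoietic markers listed, 5 of them tested, summed to 40.5 to 48.1 CPM in the mt TGFB1 and TGFB2 libraries, against 22.5 to 25.98 CPM in mt VEH, and 32.4 to 50.9 CPM in the wt TGFB1 and TGFB2 libraries, against 13.6 to 15.2 CPM in wt VEH, and 2 rose and 0 fell with TGFB1 in each line. The 11 endothelial markers, 6 of them tested, summed to 31.5 to 96.2 CPM over the 16 libraries, and 1 was called higher and 1 lower with each TGF-beta ligand in each line and between the lines in vehicle. The 9 epithelial markers, 3 of them tested, summed to 3.02 to 11.1 CPM with none called in those comparisons, and the 7 markers of Schwann and neural crest cells to 2.27 to 7.07 CPM with 1 called, higher with TGFB1 in wt cells. Some stayed at or below 1.06 CPM in all 16 libraries: Pecam1, Cldn5, Tie1 and Erg of endothelium, and Epcam, Esrp1 and Grhl2 of epithelium. Most of the summed endothelial level came from other genes of that list. The highest values of Epcam and Tie1 were both in wt TGFB1 replicate 1. The part that these transcripts play in the results below was not tested. In bulk RNA, fewer cells of a type and less RNA per cell cannot be told apart.

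In vehicle, Cdh11, Cdh3 and Cdh2 were the most abundant cadherins of the classical kind, beside Ctnna1, Ctnnb1 and Ctnnd1. Levels between genes were compared as CPM per kb of the longest annotated protein-coding transcript. On that scale Cdh11, a cadherin of mesenchymal cells, was the highest member in both lines, at 146 ± 22.8 in mt VEH and 107 ± 9.25 in wt VEH (SD, n = 2 each). Ctnna1 (alpha-E-catenin) was at 86.6 ± 26.9 in mt and 86.9 ± 0.426 in wt, and Ctnnb1 at 78.7 ± 35.9 in mt and 73.3 ± 22.1 in wt. Cdh3 (P-cadherin) stood at 73.3 ± 18.4 in mt and 54.4 ± 21.6 in wt, and within a line these neighbours did not differ beyond the spread of the more variable gene. Ctnnd1 followed at 33.2 ± 1.04 in mt and 37.2 ± 1.47 in wt. Fat1, a giant cadherin, was at 92.3 ± 75.0 in mt, second in order but with the 2 libraries far apart, and 35.4 ± 9.30 in wt. Pcdh7 stood at 25.3 ± 6.93 in mt and 19.7 ± 2.86 in wt, above Cdh2 (N-cadherin) at 18.5 ± 2.89 in mt and 15.1 ± 1.25 in wt. The other members with a transcript length lay below 6 CPM per kb in both lines; Cdh29 is the 1 member of 48 without a length. Cdh1 (E-cadherin), the cadherin of most epithelia, had 1 to 12 reads in a library.

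**Figure D1:**
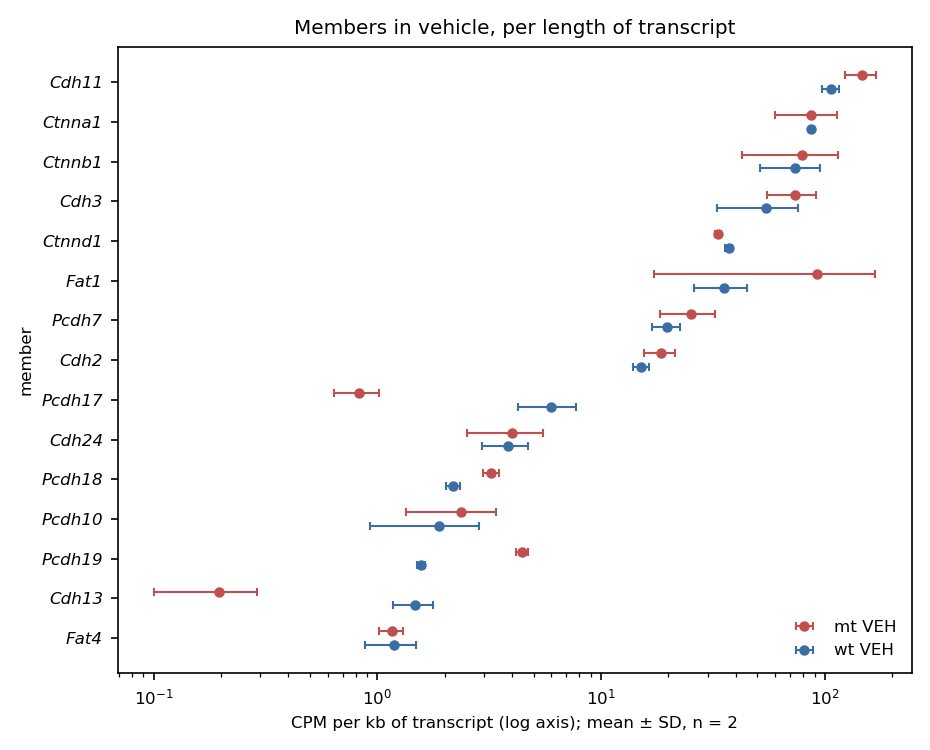
CPM per kb of transcript on a log axis for the 15 members at or above 1 in wt VEH, as the mean ± SD of the 2 libraries of mt VEH (red) and wt VEH (blue). Cdh11 heads the order in both lines, followed in wt by Ctnna1, Ctnnb1 and Cdh3, while Pcdh17 and Cdh13 lie far lower in mt and Pcdh19 lies higher in mt.

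No change passed the main test, which did not use the replicate number, in these genes of the classical junction: Cdh2, Cdh3, Cdh11, Cdh24, Ctnna1, Ctnnb1 and Ctnnd1. That test called them in none of the comparisons made (edgeR's quasi-likelihood test, Benjamini-Hochberg adjusted p under 0.05 over 16835 genes). With the replicate number as a term of the fit, Cdh3 passed in mt cells and Cdh24 in wt cells, each with both TGF-beta ligands. The catenins Ctnna2 and Jup, described below, were called with TGF-beta ligands. Outside the members, Ctnnd2 was called higher with TGFB1 in wt cells, at a log2 fold change of 2.73 (adjusted p = 0.0491). Ctnnal1 was called lower in wt cells, at -0.76 (adjusted p = 0.0238) with TGFB1 and -0.83 (adjusted p = 0.0142) with TGFB2. Each of these Ctnnd2 and Ctnnal1 calls was lost in some fits with 1 library left out. Cdh2 stood at 127 and 85.1 CPM in mt TGFB1 and 125 and 102 CPM in mt TGFB2, against 99.4 and 79.6 CPM in mt VEH. In wt cells it was at 91.1 and 66.5 CPM with TGFB1 and 80.5 and 58.5 CPM with TGFB2, against 77.5 and 68.9 CPM with vehicle. The TGFB1 and vehicle libraries overlapped in both lines, and the mt TGFB2 libraries lay just above mt vehicle. Groups of 2 libraries can easily lie apart without a true difference, so here and below a lack of overlap is no test. Its log2 fold change with TGFB1 was 0.24 ± 0.28 (SE) in mt cells, with a 95% interval of -0.36 to 0.85, and 0.11 ± 0.28 in wt cells, with an interval of -0.50 to 0.71.

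Cdh11 had 697 and 531 CPM in mt TGFB1 and 682 and 573 CPM in mt TGFB2, against 918 and 736 CPM in mt VEH. The corresponding wt libraries had 718 and 503 CPM with TGFB1 and 573 and 500.1 CPM with TGFB2, against 639.5 and 566 CPM with vehicle. In mt cells every TGF-beta library lay below both vehicle libraries, but the log2 fold change with TGFB1, -0.43 ± 0.30 (adjusted p = 0.388), did not pass, and in wt cells it was 0.02 ± 0.30 (adjusted p = 0.982). Cdh3 had 195 and 156 CPM in mt TGFB1 and 166 and 178 CPM in mt TGFB2, against 378 and 264 CPM in mt VEH. Every mt TGF-beta library thus lay below both mt vehicle libraries. The log2 fold changes in mt cells, -0.87 ± 0.38 (adjusted p = 0.153) with TGFB1 and -0.90 ± 0.38 (adjusted p = 0.137) with TGFB2, passed only with the replicate number as a term of the fit (adjusted p = 0.015 and 0.0148). Here and below, passing only with that term sets the fit against the main test alone. The other alternatives, DESeq2 among them, are not part of that wording. In wt cells Cdh3 had 233 and 182 CPM with TGFB1 and 215 and 184 CPM with TGFB2, against 305 and 172 CPM with vehicle, which overlapped.

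The 3 junction catenins were close between treatments. Ctnna1 had 346 and 287 CPM in mt TGFB1 against 394 and 252 CPM in mt VEH, and 359 and 308 CPM in wt TGFB1 against 323 and 326 CPM in wt VEH. Its 95% interval with TGFB1 was -0.55 to 0.49 in mt cells and -0.48 to 0.56 in wt cells on the log2 scale, so a change of 2-fold lies outside both. Ctnnb1 differed more between replicates than between treatments, with 344 and 212 CPM in mt TGFB1 against 377 and 193 CPM in mt VEH. In wt cells it had 402 and 263 CPM with TGFB1 against 322 and 209 CPM with vehicle, and replicate 1 was the higher library in each group. Ctnnd1 had 219 and 257 CPM in mt TGFB1 against 206 and 216 CPM in mt VEH, and 212 and 215 CPM in wt TGFB1 against 243 and 230.0 CPM in wt VEH. With TGFB2 the 3 catenins ranged from 228 to 389 CPM. Ctnnd1 lay above vehicle without overlap in mt cells with both ligands, and below it in wt cells with TGFB1. Ctnna1 lay below vehicle without overlap in wt cells with TGFB2. None of these differences passed the main test. Cdh24, a classical cadherin of lower level, had 20.05 and 13.3 CPM in mt TGFB1 against 17.6 and 10.3 CPM in mt VEH, which overlapped. It had 24.7 and 17.7 CPM in wt TGFB1 against 15.6 and 11.2 CPM in wt VEH, which did not overlap. The wt log2 fold changes of Cdh24, 0.66 ± 0.39 (adjusted p = 0.299) with TGFB1 and 0.52 ± 0.39 (adjusted p = 0.427) with TGFB2, passed only with the replicate number as a term (adjusted p = 0.0108 and 0.0364).

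**Figure D2:**
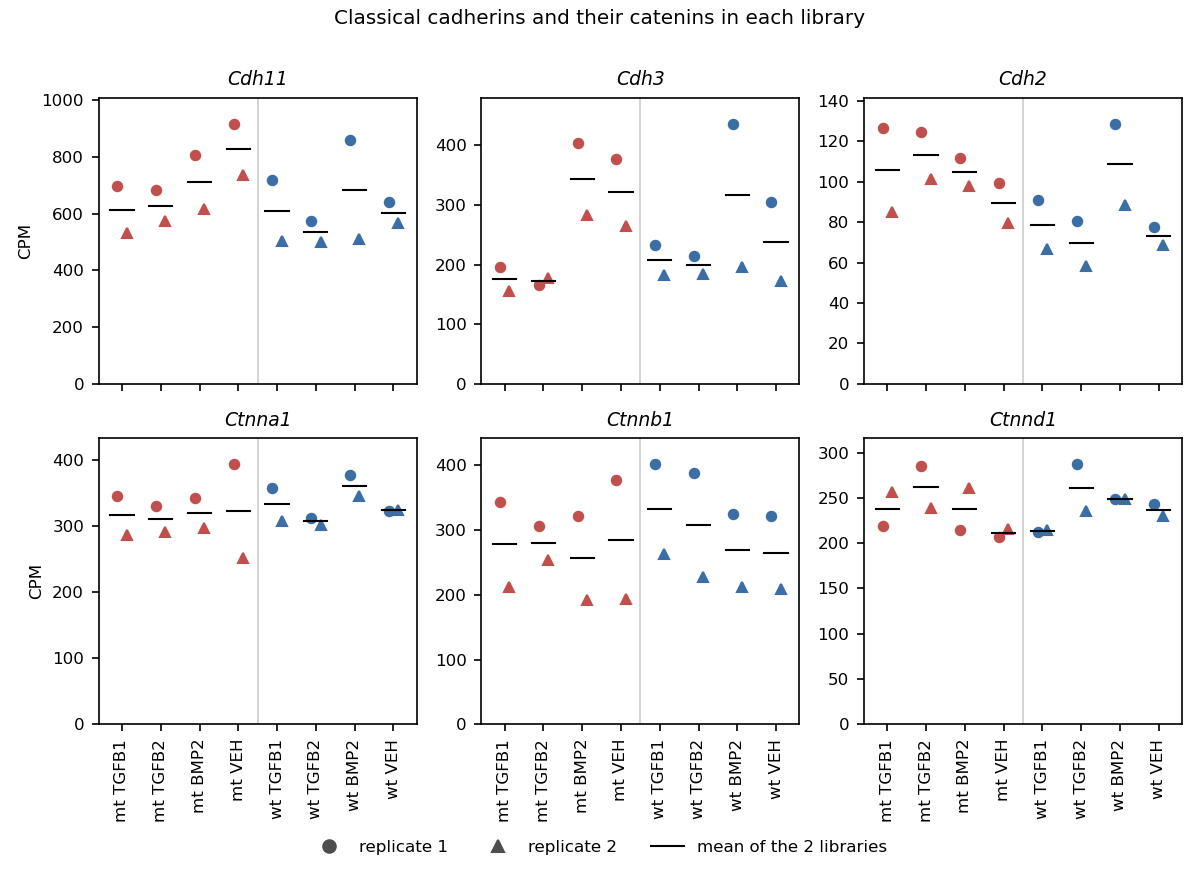
CPM of 3 classical cadherins and 3 catenins in each of the 16 libraries, on linear axes from 0, with circles for replicate 1, triangles for replicate 2 and a bar at the mean of the 2 libraries; mt groups (red) stand left of wt groups (blue). Treated and vehicle libraries overlap in every comparison for Ctnnb1 alone. Cdh3 and Cdh11 sit lower in the mt TGFB1 and TGFB2 libraries than in mt VEH without passing the main test.

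The TGF-beta ligands changed members among the protocadherins, the giant cadherins and the less abundant cadherins. In wt cells TGFB1 raised 8 and lowered 4 of the 29 members tested, where 19.0% of all genes tested were called, 10.8% higher and 8.21% lower. TGFB2 raised 7 and lowered 4, where 20.1% of all genes were called, 11.1% higher and 9.03% lower. In mt cells TGFB1 raised 1 and lowered 5 members, where 16.4% of all genes were called, 7.97% higher and 8.45% lower. TGFB2 raised 2 and lowered 5, where 17.4% were called, 8.17% higher and 9.25% lower. The median log2 fold change with TGFB1 was -0.03 over the members in mt cells, beside -0.01 over all genes, and 0.66 in wt cells, beside -0.01 over all genes. With TGFB2 it was -0.02 over the members in mt cells, beside -0.01 over all genes, and 0.29 in wt cells, beside 0.02. Members called in both lines numbered 4 with TGFB1 (Cdh23, Cdh29, Celsr1 and Pcdh1) and 5 with TGFB2 (Cdh23, Celsr1, Fat4, Pcdh1 and Pcdh18), which is 13.8% and 17.2% of the 29, where 11.3% and 12.5% of all genes tested were called in both lines. With 1 library left out at a time the counts of called members were 3 to 6 in mt TGFB1, 2 to 5 in mt TGFB2, 4 to 5 in wt TGFB1 and 5 to 7 in wt TGFB2. The share of all genes called was also smaller in each of these fits than in the main test. A fit of only the groups compared called 1 member in mt TGFB1 (Fat4) and 3 in mt TGFB2 (Fat4, Pcdh1 and Pcdh17), where 1.88% and 6.72% of all genes tested were called. In that fit the adjusted p with TGFB1 in mt cells was 0.0939 for Cdh23, 0.155 for Celsr1, 0.0617 for Pcdh1 and 0.1 for Pcdh17. With TGFB2 in mt cells it was 0.113 for Cdh23, 0.0973 for Celsr1 and 0.085 for Pcdh18. With the replicate number as a term of the fit the counts were 10 in mt TGFB1, 11 in mt TGFB2 and 21 in wt TGFB1, where 32.5%, 33.5% and 33.4% of all genes were called. Without the 4 mt replicate 1 libraries, which leaves 1 library in each mt group, assumed to vary like the other groups, 0 members were called with TGFB1 in mt cells and 1 with TGFB2, and all 6 and 7 members kept their sign.

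**Figure D3:**
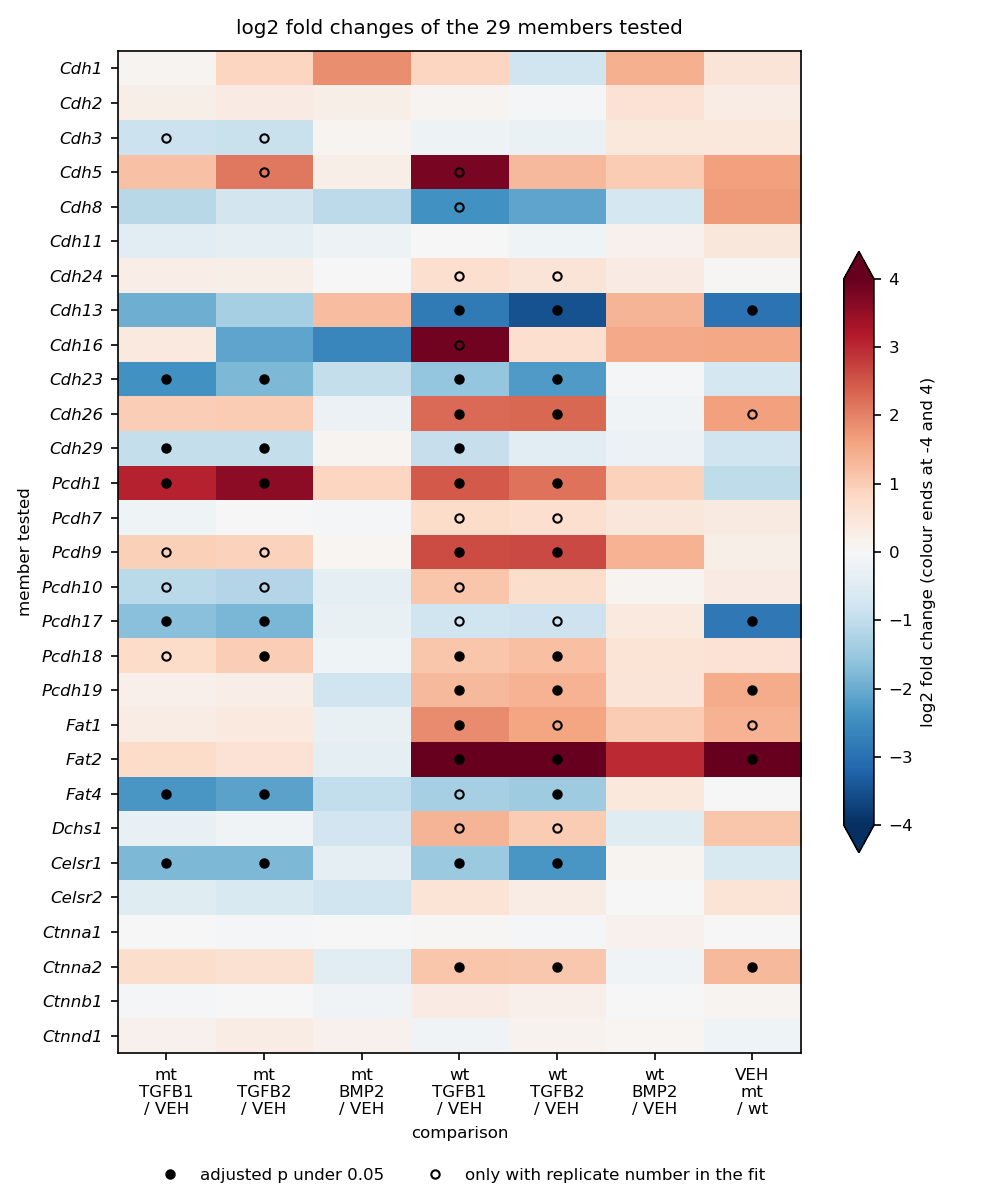
Log2 fold changes of the 29 members tested (rows) in 7 comparisons (columns), red for higher and blue for lower in the group named first. Filled dots mark an adjusted p under 0.05 in the main test. Open dots mark a call made with the replicate number in the fit but not in the main test. Pcdh1, Cdh23, Celsr1 and Fat4 keep their colour in both lines, Pcdh9, Pcdh19, Cdh26 and Fat1 are called with TGFB1 in wt cells, and the BMP2 columns hold no dot.

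Among the delta protocadherins, which mediate weak homophilic contacts and signal through tails of their own, Pcdh9 and Pcdh19 rose in wt cells with both ligands. Pcdh9 had 18.3 and 18.7 CPM in wt TGFB1 and 21.2 and 16.3 CPM in wt TGFB2, against 2.88 and 3.12 CPM in wt VEH, with no overlap. The log2 fold change was 2.62 ± 0.36 (adjusted p = 0.000549) with TGFB1 and 2.64 ± 0.37 (adjusted p = 0.00048) with TGFB2. Both calls held with each of the 4 libraries left out, over 2.56 to 2.67 with TGFB1 and 2.43 to 2.81 with TGFB2. In mt cells Pcdh9 had 7.34 and 6.31 CPM with TGFB1 and 6.73 and 6.56 CPM with TGFB2, against 4.22 and 2.85 CPM with vehicle. These groups did not overlap either, at a smaller distance: 0.96 ± 0.36 (adjusted p = 0.0963) and 0.92 ± 0.36 (adjusted p = 0.106) on the log2 scale, which passed only with the replicate number as a term (adjusted p = 0.0245 and 0.027).

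Pcdh19, an X-linked protocadherin whose human counterpart is an epilepsy gene, had 39.8 and 39.8 CPM in wt TGFB1 and 45.7 and 38.3 CPM in wt TGFB2, against 16.6 and 15.6 CPM in wt VEH. The replicates lay close together and the groups did not overlap. Log2 fold changes were 1.30 ± 0.19 (adjusted p = 0.000703) with TGFB1 and 1.38 ± 0.19 (adjusted p = 0.000468) with TGFB2, and both calls held with each library left out. In mt cells Pcdh19 had 53.3 and 51.3 CPM with TGFB1 and 60.3 and 49.1 CPM with TGFB2, against 47.6 and 43.6 CPM with vehicle. Its level in mt vehicle thus lay within or above the range of TGF-beta-treated wt cells, and the mt log2 fold changes of 0.20 and 0.26 did not pass (adjusted p = 0.542 and 0.391).

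Pcdh17 was the member with the lowest adjusted p between the lines. It had 3.08 and 2.86 CPM in mt TGFB1 and 2.45 and 2.89 CPM in mt TGFB2, against 7.94 and 11.03 CPM in mt VEH, and 34.7 and 43.7 CPM in wt TGFB1 and 36.7 and 41.1 CPM in wt TGFB2, against 82.8 and 54.5 CPM in wt VEH. Every mt library lay below every wt library, and within each line both TGF-beta groups lay below vehicle. It fell in mt cells by 1.68 ± 0.34 (adjusted p = 0.00622) on the log2 scale with TGFB1 and by 1.82 ± 0.35 (adjusted p = 0.00376) with TGFB2. The TGFB1 call was lost without mt TGFB1 replicate 2 (log2 fold changes -1.90 to -1.42, adjusted p up to 0.0561), and the TGFB2 call held with each library left out. In wt cells the changes of -0.81 and -0.82 passed only with the replicate number as a term (adjusted p = 0.0431 and 0.0389).

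The promoter windows of these genes are shown because Pcdh9, Pcdh19 and Pcdh17 are among the protocadherins whose calls held with every library left out in at least 1 TGF-beta comparison (the fourth is Pcdh1, which had no promoter entry). They are RefSeq sequences on build GRCm38.p6, a later build than the mm9 of the counted reads, each running 5′ to 3′ from 250 bases before to 50 bases after a gene start. Capitals mark matches to CAGAC, the core of the SMAD binding element, or its complement GTCTG, and to the E-box CACCTG or its complement CAGGTG, which Snail and Zeb factors bind. The windows are Pcdh9 at chr14:93890630-93890929 on the minus strand, Pcdh19 at chrX:133688944-133689243 on the minus strand and Pcdh17 at chr14:84443313-84443612 on the plus strand.
Pcdh9: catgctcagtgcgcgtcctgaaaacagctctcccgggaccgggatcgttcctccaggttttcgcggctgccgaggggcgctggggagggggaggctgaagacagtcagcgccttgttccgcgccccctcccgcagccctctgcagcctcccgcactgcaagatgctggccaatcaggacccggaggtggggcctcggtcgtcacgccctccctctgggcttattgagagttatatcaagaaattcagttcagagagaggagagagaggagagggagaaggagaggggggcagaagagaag
Pcdh19: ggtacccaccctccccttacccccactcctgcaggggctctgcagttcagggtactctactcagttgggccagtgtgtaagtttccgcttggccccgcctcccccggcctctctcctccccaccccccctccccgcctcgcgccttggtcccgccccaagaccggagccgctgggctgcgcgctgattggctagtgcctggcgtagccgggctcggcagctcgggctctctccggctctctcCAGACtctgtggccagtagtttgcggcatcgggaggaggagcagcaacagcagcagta
Pcdh17: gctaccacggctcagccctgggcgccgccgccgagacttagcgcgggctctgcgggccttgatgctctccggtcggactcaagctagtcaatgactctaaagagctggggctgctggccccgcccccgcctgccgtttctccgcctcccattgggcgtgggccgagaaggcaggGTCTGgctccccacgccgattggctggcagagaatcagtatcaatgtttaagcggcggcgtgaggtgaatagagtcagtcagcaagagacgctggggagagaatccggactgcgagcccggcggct

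The Pcdh19 and Pcdh17 windows held 1 SMAD core each, the printed Pcdh9 window held none, and the E-box was in none of the 3. A second, overlapping Pcdh9 window at chr14:93890620-93890919 held neither motif and is not printed. Of all 32851 promoter windows of the same length, 49.6% held the SMAD core and 20.2% the E-box on either strand. Among 39 windows of the 32 members with an entry, 23 held the SMAD core and 8 the E-box. A match describes these letters alone.

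Pcdh1 rose with both ligands in both lines. It had 3.82 and 2.57 CPM in mt TGFB1 and 5.51 and 3.46 CPM in mt TGFB2, against 0.496 and 0.269 CPM in mt VEH, and 5.36 and 2.99 CPM in wt TGFB1 and 4.98 and 1.899 CPM in wt TGFB2, against 0.629 and 0.867 CPM in wt VEH. No treated library overlapped its vehicle. The log2 fold changes in mt cells were 3.08 ± 0.69 (adjusted p = 0.00959) with TGFB1 and 3.57 ± 0.68 (adjusted p = 0.0039) with TGFB2. The first call was lost without mt VEH replicate 2 (log2 fold changes 2.65 to 3.52, adjusted p up to 0.0832) and the second held with each library left out. In wt cells they were 2.45 ± 0.59 (adjusted p = 0.013) and 2.17 ± 0.59 (adjusted p = 0.0229). The wt TGFB1 call was lost without wt TGFB1 replicate 1, wt VEH replicate 1 or wt VEH replicate 2 (log2 fold changes 1.93 to 2.81, adjusted p up to 0.0971), and the wt TGFB2 call was lost without wt TGFB2 replicate 1, wt VEH replicate 1 or wt VEH replicate 2 (log2 fold changes 1.32 to 2.71, adjusted p up to 0.237). Pcdh18 had 29.7 and 26.0 CPM in mt TGFB1 and 35.05 and 30.3 CPM in mt TGFB2, against 17.6 and 15.8 CPM in mt VEH. In wt cells it had 28.5 and 20.3 CPM with TGFB1 and 28.6 and 23.5 CPM with TGFB2, against 11.9 and 10.7 CPM with vehicle, so treated libraries lay above vehicle in both lines. It rose by 0.97 ± 0.29 (adjusted p = 0.0398) with TGFB2 in mt cells, by 1.11 ± 0.29 (adjusted p = 0.0202) with TGFB1 in wt cells and by 1.20 ± 0.29 (adjusted p = 0.0128) with TGFB2 in wt cells. The mt TGFB1 value of 0.74 ± 0.29 (adjusted p = 0.113) passed only with the replicate number as a term (adjusted p = 0.0193). The mt TGFB2 call was lost without any 1 of the 4 libraries (log2 fold changes 0.86 to 1.06, adjusted p up to 0.177). The wt TGFB1 call was lost without wt TGFB1 replicate 1, wt VEH replicate 1 or wt VEH replicate 2 (log2 fold changes 0.80 to 1.33, adjusted p up to 0.171), and the wt TGFB2 call was lost without wt TGFB2 replicate 1, wt VEH replicate 1 or wt VEH replicate 2 (log2 fold changes 1.05 to 1.34, adjusted p up to 0.0948).

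Pcdh10 and Pcdh7 were called in no comparison. Pcdh10 had 9.99 and 8.58 CPM in mt TGFB1 and 8.26 and 9.09 CPM in mt TGFB2, against 25.5 and 13.6 CPM in mt VEH. In wt cells it had 34.5 and 31.9 CPM with TGFB1 and 30.96 and 19.4 CPM with TGFB2, against 21.04 and 9.96 CPM with vehicle. Treated mt libraries were thus below, and wt TGFB1 libraries above, their vehicle. Its log2 fold change with TGFB1 was -1.07 ± 0.49 (adjusted p = 0.168) in mt cells and 1.101 ± 0.48 (adjusted p = 0.141) in wt cells, and both passed with the replicate number as a term (adjusted p = 0.0232 and 0.00618), as did the mt TGFB2 value of -1.16 ± 0.49 (adjusted p = 0.0175). Pcdh7, the most abundant protocadherin here, had 187 and 210.5 CPM in mt TGFB1 and 217 and 221 CPM in mt TGFB2, against 265 and 179 CPM in mt VEH. The wt libraries had 280.2 and 296 CPM with TGFB1 and 279.7 and 275 CPM with TGFB2, against 191 and 155 CPM with vehicle, with no overlap. The wt changes of 0.73 ± 0.27 (adjusted p = 0.0798) and 0.68 ± 0.27 (adjusted p = 0.1) passed only with the replicate number as a term (adjusted p = 0.0153 and 0.0225). An unnamed transcript entry on the other strand, AK034221, lies across the start of Pcdh7 and held 52212 reads beside 69121 for Pcdh7, and since the counting is not stated to use strand the entries' reads cannot be told apart. AK034221 was at 0.84 ± 0.25 (adjusted p = 0.0357) with TGFB2 in wt cells.

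Among the giant cadherins, Fat1 and Fat2 rose and Fat4 and Celsr1 fell in at least 1 comparison. Fat1, which organizes actin at cell edges, had 2139 and 1732 CPM in wt TGFB1 and 1709 and 1435 CPM in wt TGFB2, against 622 and 427 CPM in wt VEH, with no overlap. The log2 fold change was 1.88 ± 0.58 (adjusted p = 0.0419) with TGFB1, and with TGFB2 1.58 ± 0.58 (adjusted p = 0.0764), which passed only with the replicate number as a term (adjusted p = 0.003). The TGFB1 call was lost without any 1 of the 4 libraries (log2 fold changes 1.63 to 2.17, adjusted p up to 0.231). In mt cells Fat1 had 1878 and 1494 CPM with TGFB1 and 1878 and 1678 CPM with TGFB2, against 2152 and 582 CPM with vehicle. The 2 mt vehicle libraries stood on either side of the treated ones, so the mt change of 0.30 ± 0.57 with TGFB1 had opposite signs in the 2 replicates. A second entry inside Fat1 (mfat1) behaved alike in wt cells, at 1.89 ± 0.48 (adjusted p = 0.0169) with TGFB1, and shares its stretch of the genome with Fat1, so it is no separate evidence.

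Fat4, which with Dchs1 guides tissue polarity and growth, fell. It had 3.08 and 4.25 CPM in mt TGFB1 and 3.98 and 4.46 CPM in mt TGFB2, against 20.4 and 17.1 CPM in mt VEH, and 7.897 and 7.42 CPM in wt TGFB1 and 6.86 and 7.20 CPM in wt TGFB2, against 22.5 and 15.6 CPM in wt VEH. Treated libraries lay below vehicle in both lines. The log2 fold changes were -2.33 ± 0.48 (adjusted p = 0.00674) with TGFB1 and -2.14 ± 0.48 (adjusted p = 0.00926) with TGFB2 in mt cells, and -1.44 ± 0.46 (adjusted p = 0.0473) with TGFB2 in wt cells. With TGFB1 in wt cells the value of -1.31 ± 0.46 (adjusted p = 0.0682) passed only with the replicate number as a term (adjusted p = 0.0231). The mt TGFB1 call was lost without mt TGFB1 replicate 1 (log2 fold changes -2.63 to -2.13, adjusted p up to 0.0511). The mt TGFB2 call was lost without mt TGFB2 replicate 1 or mt TGFB2 replicate 2 (log2 fold changes -2.27 to -2.02, adjusted p up to 0.0715), and the wt TGFB2 call was lost without any 1 of the 4 libraries (log2 fold changes -1.68 to -1.15, adjusted p up to 0.225). Its ligand Dchs1 had only 0.371 to 2.98 CPM, and its wt values of 1.37 ± 0.56 (adjusted p = 0.117) with TGFB1 and 1.03 ± 0.57 (adjusted p = 0.252) with TGFB2 passed only with the replicate number as a term (adjusted p = 0.0103 and 0.0434).

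Celsr1, a many-pass cadherin of the planar polarity core, also fell in both lines. It had 1.03 and 1.06 CPM in mt TGFB1 and 0.995 and 1.11 CPM in mt TGFB2, against 5.05 and 2.42 CPM in mt VEH, and 2.004 and 2.03 CPM in wt TGFB1 and 1.21 and 1.02 CPM in wt TGFB2, against 6.79 and 4.54 CPM in wt VEH, with no overlap. The log2 fold changes were -1.81 ± 0.49 (adjusted p = 0.0255) and -1.80 ± 0.49 (adjusted p = 0.0251) in mt cells and -1.48 ± 0.46 (adjusted p = 0.0407) and -2.34 ± 0.48 (adjusted p = 0.00506) in wt cells, with TGFB1 first in each pair. The mt TGFB1 call was lost without mt TGFB1 replicate 1, mt VEH replicate 1 or mt TGFB1 replicate 2 (log2 fold changes -2.26 to -1.21, adjusted p up to 0.16) and the mt TGFB2 call was lost without mt TGFB2 replicate 1, mt VEH replicate 1 or mt TGFB2 replicate 2 (log2 fold changes -2.25 to -1.20, adjusted p up to 0.161). The wt TGFB1 call was lost without any 1 of the 4 libraries (log2 fold changes -1.75 to -1.17, adjusted p up to 0.212) and the wt TGFB2 call was lost without wt TGFB2 replicate 2 (log2 fold changes -2.61 to -2.03, adjusted p up to 0.0535). Celsr2 was called in no comparison and ranged over 3.44 to 10.8 CPM.

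Fat2 was near 0 in wt vehicle. It had 13 and 33 reads in wt TGFB1 and 5 and 19 reads in wt TGFB2, against 1 and 0 reads in wt VEH. At the summed depth of each group, TGFB1 over vehicle was a ratio of 47.5 (exact 95% interval 8.12 to 1920, counting error only) and TGFB2 over vehicle 31.3 (5.11 to 1290). The test called both (adjusted p = 0.0178 and 0.0389). The TGFB1 call was lost without wt VEH replicate 1, wt TGFB1 replicate 2 or wt VEH replicate 2, and the TGFB2 call without any 1 of the 4 libraries. In mt cells Fat2 had 3.75 and 2.46 CPM with TGFB1 and 2.98 and 2.64 CPM with TGFB2, against 3.56 and 0.323 CPM with vehicle, which overlapped.

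Of the cadherins outside the classical group, Cdh13 and Cdh23 fell and Cdh26 rose. Cdh13 (T-cadherin), which is held by a lipid anchor and lacks the inner part that binds catenins, had 0.766 and 0.801 CPM in wt TGFB1 and 0.304 and 0.663 CPM in wt TGFB2, against 4.76 and 6.38 CPM in wt VEH, with no overlap. Log2 fold changes were -2.82 ± 0.62 (adjusted p = 0.00762) and -3.47 ± 0.66 (adjusted p = 0.00299). The TGFB1 call was lost without wt TGFB1 replicate 1 or wt TGFB1 replicate 2 (log2 fold changes -3.02 to -2.60, adjusted p up to 0.0647) and the TGFB2 call held with each library left out, over -4.17 to -3.07. In mt cells Cdh13 was at 0.294 and 0.11 CPM with TGFB1 and 0.612 and 0.0713 CPM with TGFB2, against 0.993 and 0.484 CPM with vehicle, and passed with neither ligand (adjusted p = 0.146 and 0.298).

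Cdh23, known for the tip links of inner-ear hair cells, had 0.294 and 0.367 CPM in mt TGFB1 and 0.689 and 0.392 CPM in mt TGFB2, against 2.23 and 1.45 CPM in mt VEH. In wt cells it had 0.884 and 1.14 CPM with TGFB1 and 0.546 and 0.663 CPM with TGFB2, against 3.28 and 2.67 CPM with vehicle. The groups did not overlap in either line. The log2 fold changes were -2.41 ± 0.44 (adjusted p = 0.00328) and -1.81 ± 0.43 (adjusted p = 0.0116) in mt cells and -1.53 ± 0.38 (adjusted p = 0.014) and -2.28 ± 0.40 (adjusted p = 0.00196) in wt cells, TGFB1 first. The mt TGFB1 and wt TGFB2 calls held with each library left out, but the mt TGFB1 call did not hold in a fit of only the groups compared (adjusted p = 0.0939). The mt TGFB2 call was lost without mt VEH replicate 1 or mt TGFB2 replicate 2 (log2 fold changes -2.20 to -1.40, adjusted p up to 0.147), and the wt TGFB1 call was lost without wt TGFB1 replicate 1, wt VEH replicate 1 or wt TGFB1 replicate 2 (log2 fold changes -1.75 to -1.39, adjusted p up to 0.0913). Another gene, 4632428N05Rik, lies inside Cdh23 on the opposite strand with 2142 reads beside 410, and was called in neither line with either ligand.

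Cdh26, a cadherin-like protein, had 5.48 and 13.03 CPM in wt TGFB1 and 7.95 and 11.3 CPM in wt TGFB2, against 2.38 and 1.53 CPM in wt VEH, with no overlap. It rose by 2.26 ± 0.47 (adjusted p = 0.0058) and 2.31 ± 0.47 (adjusted p = 0.00496) on the log2 scale. The TGFB1 call was lost without wt TGFB1 replicate 2 or wt VEH replicate 2 (log2 fold changes 1.49 to 2.70, adjusted p up to 0.0771) and the TGFB2 call was lost without wt VEH replicate 2 (log2 fold changes 2.01 to 2.65, adjusted p up to 0.0636). In mt cells it had 9.40 and 14.7 CPM with TGFB1 and 9.34 and 14.9 CPM with TGFB2, against 7.03 and 5.17 CPM with vehicle. Treated mt libraries lay above vehicle, at 0.99 ± 0.45 (adjusted p = 0.166) with TGFB1, which did not pass. Ctnna2 (alpha-N-catenin), the alpha-catenin of neurons, was the 1 catenin called among the members. It had 4.54 and 3.91 CPM in wt TGFB1 and 3.89 and 4.37 CPM in wt TGFB2, against 2.34 and 1.56 CPM in wt VEH, and rose by 1.12 ± 0.30 (adjusted p = 0.0208) and 1.09 ± 0.30 (adjusted p = 0.0228). The TGFB1 call was lost without wt TGFB1 replicate 1, wt TGFB1 replicate 2 or wt VEH replicate 2 (log2 fold changes 0.84 to 1.42, adjusted p up to 0.185) and the TGFB2 call was lost without wt TGFB2 replicate 1, wt TGFB2 replicate 2 or wt VEH replicate 2 (log2 fold changes 0.82 to 1.40, adjusted p up to 0.191). Neither held without the filter on low reads (adjusted p = 0.0658 and 0.0727) or with only the groups compared (adjusted p = 0.0651 and 0.0661). In mt cells Ctnna2 was at 7.27 and 8.21 CPM with TGFB1 and 6.43 and 7.99 CPM with TGFB2, against 4.72 and 4.79 CPM with vehicle, and did not pass (adjusted p = 0.125 and 0.187). Lrrtm1, which lies inside Ctnna2 on the other strand, moved the other way, at -2.15 ± 0.33 (adjusted p = 0.00109) with TGFB1 in mt cells.

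Cdh29 is uncertain, because its entry overlaps Uba7, 6230427J02Rik and Cdhr4 and held 1172 reads beside 10095, 9948 and 139. With TGFB1 in mt cells Uba7 fell and 6230427J02Rik rose, at -1.38 ± 0.39 (adjusted p = 0.0328) and 2.61 ± 0.29 (adjusted p = 0.000169). It had 1.91 and 1.83 CPM in mt TGFB1 and 2.296 and 1.57 CPM in mt TGFB2, against 3.89 and 3.44 CPM in mt VEH, and 3.65 and 3.02 CPM in wt TGFB1 and 4.31 and 4.903 CPM in wt TGFB2, against 5.89 and 6.69 CPM in wt VEH. It fell by 0.97 ± 0.29 (adjusted p = 0.0416) and 0.94 ± 0.29 (adjusted p = 0.0449) in mt cells with TGFB1 and TGFB2 and by 0.92 ± 0.28 (adjusted p = 0.0367) with TGFB1 in wt cells, and the wt TGFB2 value was -0.45 ± 0.27 (adjusted p = 0.308). Each of these 3 calls was lost without any 1 of its 4 libraries, at log2 fold changes of -1.05 to -0.88, -1.22 to -0.68 and -1.10 to -0.79. None held with only the groups compared (adjusted p = 0.308, 0.265 and 0.0663) or without the filter (adjusted p = 0.12, 0.124 and 0.0971).

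**Figure D4:**
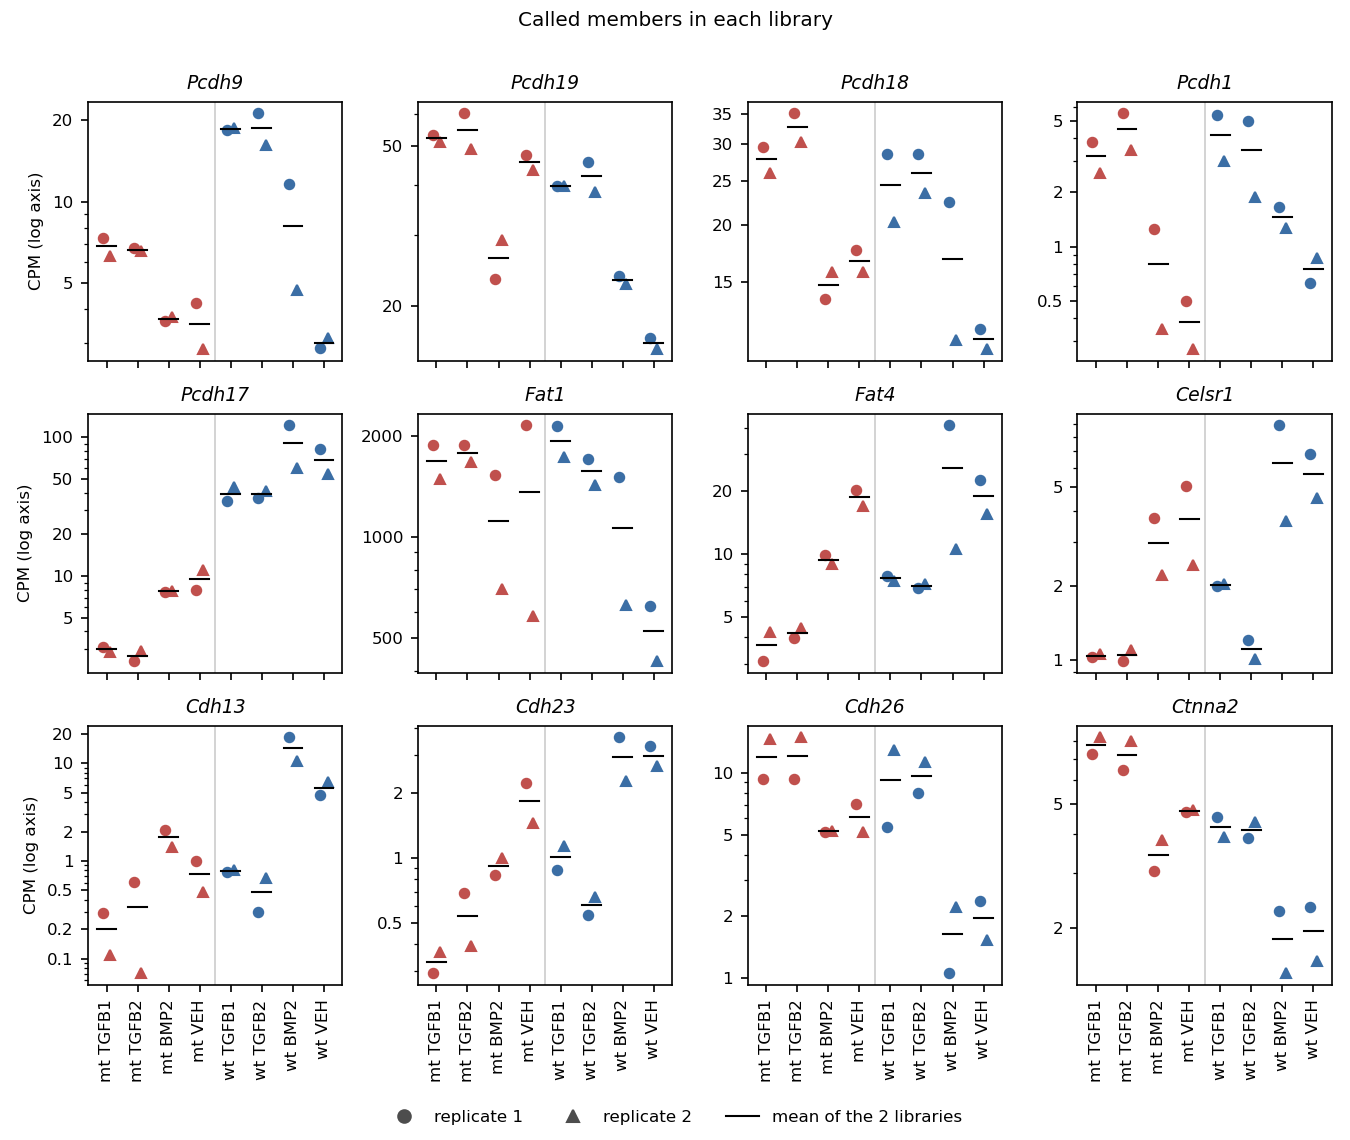
CPM on log axes of 12 of the 14 members called in at least 1 comparison, in each of the 16 libraries, with circles for replicate 1, triangles for replicate 2 and a bar at the mean of the 2 libraries; mt groups (red) stand left of wt groups (blue), with TGFB1, TGFB2 and BMP2 left of vehicle. Fat2 and Cdh29 are not drawn. Pcdh17 lies lower in every mt library than in every wt library, and the mt vehicle libraries of Fat1 stand apart from each other at 2152 and 582 CPM.

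Cdh8, Cdh1, Cdh5 and Cdh16 were tested at the edge of detection and passed in no comparison of the main test. Cdh8, a classical cadherin, had at most 1.35 CPM. Cdh5 (VE-cadherin, of endothelium) had 1.36 and 0.0616 CPM in wt TGFB1 against 0.0899 and 0 CPM in wt VEH. Cdh16, a cadherin of kidney epithelium, had 2.71 and 0 CPM in wt TGFB1 against 0.18 and 0 CPM in wt VEH. The reads of both lay almost wholly in replicate 1 libraries, and the highest value of both was in wt TGFB1 replicate 1, the library with the highest Epcam and Tie1. With the replicate number as a term, the wt TGFB1 comparison called Cdh5, Cdh16 and Cdh8 (adjusted p = 0.00201, 0.0104 and 0.0348), and the mt TGFB2 comparison Cdh5 (adjusted p = 0.0336). The 19 members not tested were Cdh4, Cdh6, Cdh7, Cdh9, Cdh10, Cdh12, Cdh15, Cdh17, Cdh18, Cdh19, Cdh20, Cdh22, Pcdh8, Pcdh12, Pcdh15, Pcdh20, Fat3, Celsr3 and Ctnna3. Of these, 17 had 10 reads or fewer in every library, and the highest count was 16, for Cdh10.

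The difference between the lines in their response was tested directly, as the TGF-beta effect in mt cells minus that in wt cells. No member passed with TGFB1, where 0.0119% of all genes did, or with TGFB2, where 0.0475% did; 5 and 4 of the 29 members had an unadjusted p under 0.05, as did 6.18% and 5.65% of all genes. The median difference over the members was -0.75 with TGFB1, beside -0.04 over all genes, and -0.48 with TGFB2, beside -0.05. The member with the lowest p in both tests was Pcdh19, at -1.11 ± 0.27 (adjusted p = 0.252) with TGFB1 and -1.12 ± 0.27 (adjusted p = 0.213) with TGFB2. With the replicate number as a term it passed with both ligands (adjusted p = 0.0395 and 0.0361), where 0.820% and 0.849% of all genes were called. Pcdh10, at -2.17 ± 0.69 (adjusted p = 0.44), passed in that fit with TGFB1 alone (adjusted p = 0.028). Pcdh9 differed by -1.67 ± 0.50 (adjusted p = 0.403) with TGFB1 and passed in neither fit. Pcdh1, called in both lines, differed by 0.63 ± 0.90 with a 95% interval of -1.32 to 2.59. DESeq2 called 1 member in each of the 3 tests of this kind, Pcdh19 each time, where it called 0.692% of all genes with TGFB1, 0.940% with TGFB2 and 0.0119% with BMP2. The 3 tests share the same vehicle libraries of both lines, so the Pcdh19 calls are not separate evidence.

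**Figure D5:**
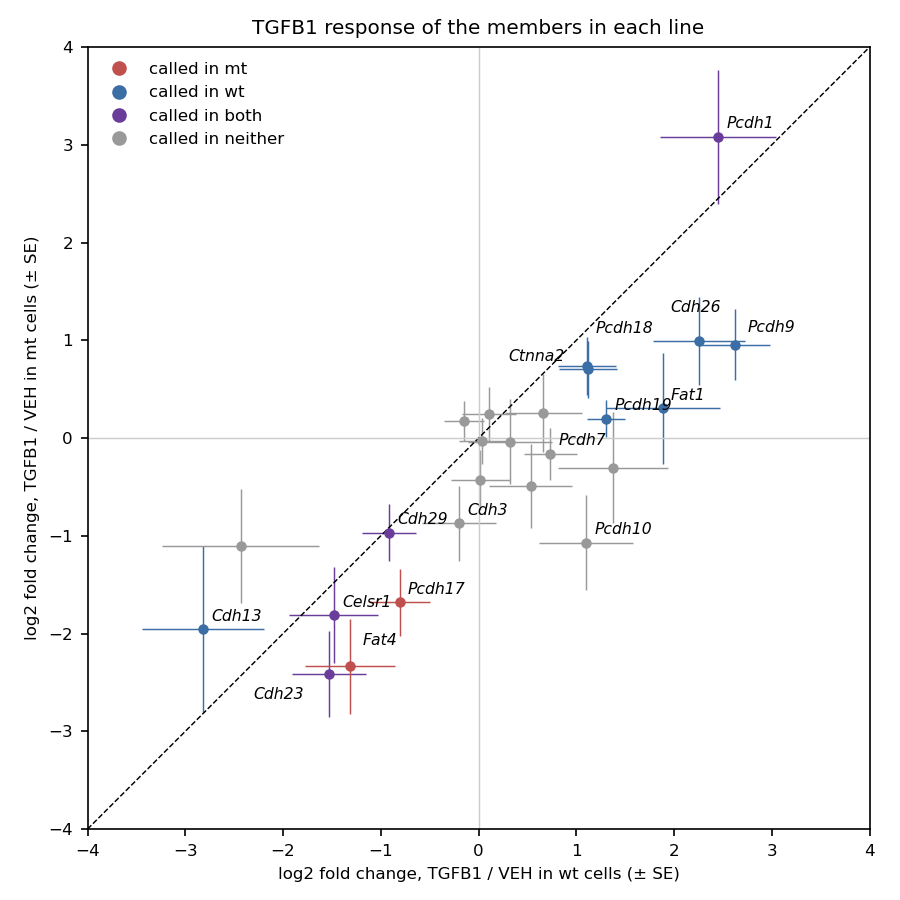
Log2 fold change with TGFB1 in mt cells (vertical) against that in wt cells (horizontal) for 25 of the 29 members tested, each ± SE, coloured by the line in which it was called; the dashed line marks equal change. The 4 members with an SE of 1 or more are not drawn. Pcdh9, Pcdh19, Fat1 and Pcdh10 lie below the dashed line, and none of the members passed the main test of the difference.

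Without ligand, 3 members were higher and 2 lower in mt VEH than in wt VEH, where 3.58% of all genes tested were called, 2.45% higher and 1.13% lower. Pcdh17 was lower by 2.85 ± 0.34 on the log2 scale (adjusted p = 0.000914) and Pcdh19 2.83-fold higher (SE 0.19 on the log2 scale, adjusted p = 0.00151), and both calls held with each of the 4 libraries left out, over -3.12 to -2.52 and 1.43 to 1.55. In a fit of only the 2 vehicle groups no member was called, where 0.177% of all genes tested were called. Fat2 did not pass the filter on low reads there, so its call between the lines was not retested. The adjusted p in that fit was 0.0603 for Pcdh17, 0.116 for Pcdh19, 0.104 for Cdh13 and 0.404 for Ctnna2. With 1 library left out at a time, 2 to 4 members were called. Cdh13 was lower, at -2.96 ± 0.65 (adjusted p = 0.0286), with 0.993 and 0.484 CPM in mt VEH against 4.76 and 6.38 CPM in wt VEH. Ctnna2 was higher, at 1.29 ± 0.30 (adjusted p = 0.0367), with 4.72 and 4.79 CPM in mt VEH against 2.34 and 1.56 CPM in wt VEH. Each of the Cdh13 and Ctnna2 calls was lost without any 1 of the 4 libraries (log2 fold changes -3.51 to -2.49 and 1.02 to 1.60). Fat2 was called higher (adjusted p = 0.022), with 43 and 6 reads in mt VEH against 1 and 0 in wt VEH, a ratio of 81.6 (exact 95% interval 14 to 3290, counting error only). That call was lost without wt VEH replicate 1, mt VEH replicate 1 or wt VEH replicate 2, and mt VEH replicate 1 held most of the reads. mt VEH replicate 1 was also 1 of the 4 with cardiac muscle transcripts; without those libraries 1 of the 5 calls held, and all 5 kept their sign. Cdh26 and Fat1, at 1.64 ± 0.47 (adjusted p = 0.0905) and 1.38 ± 0.58 (adjusted p = 0.283), passed only with the replicate number as a term (adjusted p = 0.0164 and 0.0428). Cdh13, Fat1 and 6 more of the tested members lie on chromosome 8, whose 893 tested genes had a median log2 difference of 0.26 between mt and wt, beside -0.05 to 0.07 on the other autosomes. That median was 0.11 without the 4 mt replicate 1 libraries. With 1 vehicle library left out it was 0.11 to 0.35, and 0.11 was the value without mt VEH replicate 1. All 6 tested genes of chromosome Y were called lower in mt, while the 506 tested genes of chromosome X, where Pcdh19 lies, had a median of 0.02. The part of these differences in the results was not tested.

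BMP2 called no member. In mt cells 0.0416% of all genes tested were called, 0.0297% higher and 0.0119% lower, and 0.232% with the replicate number as a term; 2 members had an unadjusted p under 0.05, as did 3.34% of all genes. In wt cells 0% were called, and 3 members and 5.15% of all genes had such a p. DESeq2 called 1 member in mt cells and 0 in wt cells, where it called 0.296% and 0.0832% of all genes. Cdh13 had 2.08 and 1.39 CPM in mt BMP2 against 0.993 and 0.484 CPM in mt VEH, and 18.4 and 10.4 CPM in wt BMP2 against 4.76 and 6.38 CPM in wt VEH. Both BMP2 libraries lay above both vehicle libraries in each line, at 1.23 ± 0.69 (adjusted p = 1) and 1.35 ± 0.56 (adjusted p = 0.915) on the log2 scale. In wt cells both TGF-beta groups lay on the other side of vehicle. Cdh1, with 1 to 12 reads in a library, also had both BMP2 libraries above both vehicle libraries in each line. Pcdh19 had 23.3 and 29.2 CPM in mt BMP2 against 47.6 and 43.6 CPM in mt VEH, at -0.79 ± 0.19 (adjusted p = 0.524), and DESeq2 called it. Pcdh9 had 11.6 and 4.71 CPM in wt BMP2 against 2.88 and 3.12 CPM in wt VEH, at 1.40 ± 0.36 (adjusted p = 0.915). The BMP2 replicate 1 libraries were the shallowest, with 7109519 reads in mt and 6410320 in wt. TGFB2 against TGFB1 called no member in either line, where 0% of all genes were called, with 0 members at an unadjusted p under 0.05 and 0 by DESeq2; 0.38% of all genes in mt cells and 0.327% in wt cells had such a p. The 95% interval of the difference lay within 2-fold for 15 of the 29 members in mt cells and 12 in wt cells, and within 4-fold for 25 and 23. For members whose interval reached beyond a bound, a larger difference between the ligands was not excluded.

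Partners and regulators of these proteins were described from lists of related genes. Of 26 junction partners, 3 rose and 4 fell with TGFB1 in mt cells and 4 rose and 2 fell in wt cells (median log2 fold changes 0.09 in mt and 0.36 in wt cells), where the medians over all genes were -0.01 in both lines. The called share was 26.9% in mt and 23.1% in wt cells, beside 16.4% and 19.0% of all genes tested, the background for each list with TGFB1. Over all the lists 20 genes were called with TGFB1 in mt cells, against 4 in a fit of only the groups compared. The first fit called 16.4% of all genes tested there and the second 1.88%. In the second fit the adjusted p was 0.202 for Jup, 0.132 for Pvrl1, 0.13 for Ssx2ip, 0.275 for Vcl and 0.126 for Twist1, and likewise 0.0617 for Mmp9, 0.23 for Fzd6, 0.068 for Nkd1, 0.0787 for Fam123b, 0.186 for Pygo2 and 0.25 for Bcl9. Jup (plakoglobin), the close relative of beta-catenin, had 341 and 345 CPM in mt TGFB1 against 203 and 137 CPM in mt VEH, and 429 and 349 CPM in wt TGFB1 against 216 and 167 CPM in wt VEH. It rose by 1.01 ± 0.25 (adjusted p = 0.0164) in mt cells and 1.02 ± 0.25 (adjusted p = 0.0135) in wt cells. The mt call was lost without mt TGFB1 replicate 1, mt TGFB1 replicate 2 or mt VEH replicate 2 (log2 fold changes 0.76 to 1.31, adjusted p up to 0.111), and the wt call was lost without wt TGFB1 replicate 1 or wt VEH replicate 2 (log2 fold changes 0.82 to 1.22, adjusted p up to 0.13). Pvrl1 (nectin-1), of the nectin adhesion system beside cadherins, had 70.5 and 55.4 CPM in mt TGFB1 against 29.2 and 13.02 CPM in mt VEH, and 49.2 and 43.3 CPM in wt TGFB1 against 8.99 and 5.31 CPM in wt VEH. It rose by 1.58 ± 0.39 (adjusted p = 0.0165) in mt cells, a call that was lost without mt TGFB1 replicate 1 or mt VEH replicate 2 (log2 fold changes 1.11 to 2.27, adjusted p up to 0.1), and by 2.70 ± 0.41 (adjusted p = 0.000895) in wt cells. Its relative Pvrl4 had 10.7 and 14.8 CPM in mt TGFB1 against 7.28 and 2.04 CPM in mt VEH, and 5.07 and 7.92 CPM in wt TGFB1 against 0.225 and 0.277 CPM in wt VEH. The wt rise of 4.65 ± 0.62 (adjusted p = 0.000445) held with each library left out, and the mt value of 1.48 ± 0.50 (adjusted p = 0.0625) passed only with the replicate number as a term (adjusted p = 0.0232). Ssx2ip, an afadin-binding protein, fell by 1.79 ± 0.38 (adjusted p = 0.00797) in mt cells and 1.24 ± 0.38 (adjusted p = 0.0385) in wt cells. The mt call was lost without mt VEH replicate 1 or mt TGFB1 replicate 2 (log2 fold changes -2.31 to -1.22, adjusted p up to 0.0705), and the wt call was lost without any 1 of the 4 libraries (log2 fold changes -1.46 to -1.09, adjusted p up to 0.208). Vcl (vinculin), which joins alpha-catenin to actin under load, fell by 1.11 ± 0.30 (adjusted p = 0.0274) in mt cells, a call that was lost without mt TGFB1 replicate 1, mt VEH replicate 1 or mt TGFB1 replicate 2 (log2 fold changes -1.52 to -0.53, adjusted p up to 0.237), and was at -0.56 ± 0.30 (adjusted p = 0.245) in wt cells.

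The listed repressors of cadherin genes include the Snail, Zeb and Twist factors of epithelial-to-mesenchymal transition. Of 9 tested from 11 listed, 1 rose and 1 fell with TGFB1 in mt cells and 1 rose and 3 fell in wt cells (median log2 fold changes -0.05 in mt and -0.19 in wt cells). The called share was 22.2% in mt and 44.4% in wt cells. With the replicate number as a term, 2 rose and 2 fell in mt cells and 1 rose and 3 fell in wt cells. Twist1 had 37.7 and 33.3 CPM in mt TGFB1 against 73.6 and 77.2 CPM in mt VEH, and 40.1 and 32.1 CPM in wt TGFB1 against 101 and 78.5 CPM in wt VEH. It fell by 1.09 ± 0.20 (adjusted p = 0.00367) in mt cells and 1.31 ± 0.20 (adjusted p = 0.00102) in wt cells, with each library left out as well. Zeb2 fell by 1.11 ± 0.21 (adjusted p = 0.00358) in wt cells and was at -0.66 ± 0.22 (adjusted p = 0.0562) in mt cells, where it passed only with the replicate number as a term (adjusted p = 0.0197). Snai1, Snai2 and Zeb1 were called with TGFB1 in neither line: Snai1 was at 0.62 ± 0.22 (adjusted p = 0.0751) in mt and -0.04 ± 0.21 (adjusted p = 0.936) in wt cells, Snai2 at 0.32 ± 0.56 (adjusted p = 0.764) and -0.45 ± 0.56 (adjusted p = 0.672), and Zeb1 at -0.05 ± 0.20 (adjusted p = 0.908) and -0.17 ± 0.19 (adjusted p = 0.644). The mt value of Snai1 passed with the replicate number as a term (adjusted p = 0.0291). The gene that rose was Foxc2, a forkhead factor, with 34.5 and 23.4 CPM in mt TGFB1 against 6.45 and 5.06 CPM in mt VEH, and 20.5 and 17.3 CPM in wt TGFB1 against 2.47 and 2.22 CPM in wt VEH. Its log2 fold change was 2.33 ± 0.28 (adjusted p = 0.000278) in mt cells and 3.01 ± 0.29 (adjusted p = 9.41e-05) in wt cells, and both calls held with each library left out.

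Among 13 tested genes for processing and turnover of cadherins, 1 rose and 1 fell with TGFB1 in each line (median log2 fold changes 0.09 in mt and 0.13 in wt cells), a called share of 15.4% in both. Psen2, a catalytic part of gamma-secretase, had 11.7 and 6.97 CPM in mt TGFB1 against 62.3 and 60.3 CPM in mt VEH, and 16.7 and 12.4 CPM in wt TGFB1 against 97.1 and 87.6 CPM in wt VEH. It fell by 2.73 ± 0.27 (adjusted p = 8.67e-05) and 2.67 ± 0.27 (adjusted p = 0.000115), with each library left out as well. The gene that rose was Mmp9, a matrix protease, with 15 and 24 reads in mt TGFB1 against 0 and 0 in mt VEH and 15 and 14 in wt TGFB1 against 1 and 3 in wt VEH (adjusted p = 0.00279 and 0.0165). The wt call was lost without wt TGFB1 replicate 1, wt VEH replicate 1 or wt VEH replicate 2 (log2 fold changes 2.34 to 3.63). Of 20 planar polarity genes, 1 rose and 1 fell in mt cells and 2 rose and 1 fell in wt cells (median log2 fold changes -0.09 in mt and 0.20 in wt cells), a called share of 10.0% in mt and 15.0% in wt cells. Fzd6, a Frizzled receptor, rose by 0.81 ± 0.21 (adjusted p = 0.0208) in mt cells, a call that was lost without mt VEH replicate 1, mt TGFB1 replicate 2 or mt VEH replicate 2 (log2 fold changes 0.60 to 0.95, adjusted p up to 0.2), and by 1.21 ± 0.21 (adjusted p = 0.00206) in wt cells. Prickle1, of the same core as Celsr1, fell with it, by 2.07 ± 0.27 (adjusted p = 0.000458) in mt cells and 1.18 ± 0.26 (adjusted p = 0.00815) in wt cells, where the call was lost without wt TGFB1 replicate 1 or wt VEH replicate 2 (log2 fold changes -1.55 to -0.94, adjusted p up to 0.0718). Wnt11, a Wnt of the polarity branch, had 55.4 and 44.8 CPM in mt TGFB1 against 62.5 and 37.7 CPM in mt VEH, and 107 and 72.5 CPM in wt TGFB1 against 22.97 and 16.1 CPM in wt VEH. It rose by 2.20 ± 0.31 (adjusted p = 0.000569) in wt cells and was at 0.00 ± 0.30 (adjusted p = 1) in mt cells. The difference between the lines, -2.20 ± 0.42 (adjusted p = 0.16), did not pass the main test. It passed with the replicate number as a term (adjusted p = 0.0053).

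Targets of beta-catenin with TCF were counted beside Ctnnb1, which was not called. Of 11 tested targets, 0 rose and 3 fell with TGFB1 in mt cells, and 0 rose and 5 fell with TGFB2. In wt cells 1 rose and 1 fell with TGFB1 (median log2 fold changes -0.96 in mt and -0.43 in wt cells), and 1 rose and 3 fell with TGFB2. The called share was 27.3% in mt and 18.2% in wt cells with TGFB1. With TGFB2 it was 45.5% in mt and 36.4% in wt cells, beside 17.4% and 20.1% of all genes tested. Axin2, the usual readout of beta-catenin with TCF, had 12.7 and 20.2 CPM in mt TGFB1 and 12.8 and 14.8 CPM in mt TGFB2, against 32.4 and 33.3 CPM in mt VEH. In wt cells it had 9.78 and 18.1 CPM with TGFB1 and 8.93 and 12.9 CPM with TGFB2, against 12.9 and 12.2 CPM with vehicle, which overlapped with both ligands. The mt log2 fold change was -1.25 ± 0.32 (adjusted p = 0.0183) with TGFB2, a call that was lost without mt TGFB2 replicate 1, mt TGFB2 replicate 2 or mt VEH replicate 2 (log2 fold changes -1.37 to -1.15, adjusted p up to 0.123), and -0.99 ± 0.32 (adjusted p = 0.0523) with TGFB1, which passed only with the replicate number as a term (adjusted p = 0.00852). Ccnd1 (cyclin D1) had 42.01 and 33.7 CPM in mt TGFB1 against 475 and 239 CPM in mt VEH, and 51.8 and 60.4 CPM in wt TGFB1 against 91.9 and 76.2 CPM in wt VEH. It fell by 3.24 ± 0.31 (adjusted p = 7.16e-05) in mt cells, with each library left out as well, and was at -0.58 ± 0.28 (adjusted p = 0.194) in wt cells. Nkd1, a Wnt antagonist and target, fell in both lines, by 1.64 ± 0.39 (adjusted p = 0.0134) in mt and 1.69 ± 0.39 (adjusted p = 0.00939) in wt cells. The mt call was lost without mt TGFB1 replicate 2 (log2 fold changes -1.88 to -1.46, adjusted p up to 0.105), and the wt call was lost without wt VEH replicate 1 or wt TGFB1 replicate 2 (log2 fold changes -2.01 to -1.30, adjusted p up to 0.0821). Nkd2 went the other way in wt cells, at 1.36 (adjusted p = 0.0272) with TGFB1 and 1.63 (adjusted p = 0.0102) with TGFB2. Both Nkd2 calls were lost in some fits with 1 library left out. Of 16 regulators of beta-catenin, 1 rose and 3 fell in mt cells and 1 rose and 2 fell in wt cells (median log2 fold changes -0.08 in mt and 0.02 in wt cells), a called share of 25.0% in mt and 18.8% in wt cells. Fam123b (Amer1), which helps degrade beta-catenin, fell by 1.68 ± 0.30 (adjusted p = 0.00294) in mt and 1.71 ± 0.30 (adjusted p = 0.00215) in wt cells, with each library left out as well. Apc, also on these lists, was called higher with TGFB1 in wt cells, at 0.89 (adjusted p = 0.0422). The Apc call was lost without any 1 of the 4 libraries. Pygo2, a nuclear partner of beta-catenin, was at 0.88 ± 0.20 (adjusted p = 0.0101) in mt cells, where it rose, and 0.39 ± 0.20 (adjusted p = 0.213) in wt cells. The mt call was lost without mt TGFB1 replicate 2 or mt VEH replicate 2 (log2 fold changes 0.85 to 0.89, adjusted p up to 0.0561). Bcl9, a co-activator, fell by 0.78 ± 0.21 (adjusted p = 0.0267) in mt and 0.75 ± 0.21 (adjusted p = 0.027) in wt cells. The mt call was lost without mt VEH replicate 1, mt TGFB1 replicate 2 or mt VEH replicate 2 (log2 fold changes -0.96 to -0.65, adjusted p up to 0.154), and the wt call was lost without any 1 of the 4 libraries (log2 fold changes -0.88 to -0.69, adjusted p up to 0.134). In vehicle, Axin2 and Ccnd1 were higher in mt than in wt cells, by 1.39 ± 0.32 (adjusted p = 0.0347) and 2.09 ± 0.29 (adjusted p = 0.00247) on the log2 scale. The Axin2 call was lost without any 1 of the 4 libraries (log2 fold changes 1.35 to 1.43, adjusted p up to 0.249), and the Ccnd1 call was lost without wt VEH replicate 2 (log2 fold changes 1.51 to 2.49, adjusted p up to 0.0566). Neither held with only the 2 vehicle groups fitted (adjusted p = 0.138 and 0.138).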

How the data were processed

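RNA from 16 libraries (2 genotypes, 4 treatments, 2 libraries each) was compared. The authors deposited counts, raw reads per gene, and rpm, reads scaled to 1e+06, in 2 tables of 30385 genes, 1 per replicate number. The deposited rpm matched the counts to within 2.9e-11 and was not tested. Alignment was to mm9 with TopHat or TopHat2 per the submitters' processing notes; the counting program, gene models and strandedness are not stated in the labels or headers. In 1 table, 2 rows without a gene name were left out.

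The main test was edgeR 4.0.16 (R 4.3.3, limma 3.58.1): filterByExpr, TMM, robust dispersions and quasi-likelihood F tests on 8 group means over all 16 libraries, with 8 residual degrees of freedom before moderation. P-values were adjusted over 16835 genes by Benjamini-Hochberg, with a threshold of 0.05 for a call, and the SE is the log2 fold change over the root of F. CPM are TMM-scaled. DESeq2 1.42.0, RLE factors, no filter, fewer groups, omitted libraries and the replicate number as a term were the alternatives, and the fit was tested on simulated data. Replicate numbers come from the titles: same-numbered libraries deviated together in 28 of 28 pairs (r 0.163 to 0.756). The main test did not use this pairing, and only the fit with the replicate number as a term did. Libraries held 6410320 to 31813921 reads; the number of libraries limits precision, and intervals from reads cover counting error only. No pair of replicates agreed within sampling noise.

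The members and lists of related genes were chosen with earlier results of these data known. Named are every member called anywhere or with a mean of at least 10 CPM, the other members by range, the called genes of each list with the smallest p with TGFB1, and 8 genes fixed by name (Axin2, Snai1, Snai2, Zeb1, Zeb2, Twist1, Jup, Vcl). The called list genes Ctnnd2, Ctnnal1, Nkd2 and Apc are named beside them. Transcript lengths are from GENCODE M21 and promoter windows from RefSeq, matched by symbol for 47 and 32 members; both are on GRCm38 and supplied no coordinates for the reads.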

Additional observations from a re-analysis of the deposited data

Results flagged for a closer look

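Ccnd1 (cyclin D1), one of the beta-catenin targets listed, responded differently to TGFB2 in the lines by a test of the difference itself. It had 20.7 and 24.8 CPM in mt TGFB2 against 475 and 239 CPM in mt VEH, and 35.4 and 42.9 CPM in wt TGFB2 against 91.9 and 76.2 CPM in wt VEH. The effect in mt cells minus that in wt cells was -2.87 ± 0.41 on the log2 scale (edgeR, adjusted p = 0.0407). The call was lost without 7 of the 8 libraries in turn, all but mt VEH replicate 2, over -3.28 to -2.29 and adjusted p up to 0.257.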

How the results depend on the processing

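RLE factors left every count of called members as it was. With the replicate number as a term (the replicate block), 10 members were called in mt TGFB1, 11 in mt TGFB2, 21 in wt TGFB1, 2 in the TGFB1 and 1 in the TGFB2 difference between lines, and the block ended no call. Genes called in the lists of related genes then numbered 33 in mt TGFB1, 31 in wt TGFB1, 38 in wt TGFB2 and 13 between lines in vehicle, against 20, 20, 21 and 8. The shares of all genes called were 32.5%, 33.4%, 34.7% and 10.3%, against 16.4%, 19.0%, 20.1% and 3.58%. Fitting only the groups compared gave 1 member in mt TGFB1, 3 in mt TGFB2 and 0 between lines, and 4, 11 and 0 list genes. Fat2 was not tested between lines in that fit. That fit called 1.88%, 6.72% and 0.177% of all genes tested. Without the 4 mt replicate 1 libraries there were 0, 1 and 1 members and 9, 9 and 3 list genes. DESeq2 called 1 member with BMP2 in mt cells and 1 in each of the 3 differences between lines. Leaving out 1 library at a time gave 3 to 6 members in mt TGFB1, 2 to 5 in mt TGFB2, 4 to 5 in wt TGFB1, 5 to 7 in wt TGFB2, 2 to 4 between lines and 0 elsewhere, and 9 to 14, 10 to 22, 10 to 13, 12 to 16 and 1 to 7 list genes. The causes were not tested. No called member or list gene changed sign under any alternative in which it had a value. The chromosome 8 median was 0.14 without the filter, 0.11 without the 4 mt replicate 1 libraries and 0.11 to 0.35 with 1 library left out. Alternatives for the lists and chromosome 8 were chosen after seeing the data. With 2 libraries a group, many calls rest on single libraries, and members under 1 CPM are limited by depth.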
